A study of Mus musculus with 12 samples.

Results

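A set of 10 genes used as markers of bile duct cells, liver progenitors, fetal liver and liver injury were followed in mouse livers that lacked PC-TP or carried it, on chow or on a methionine and choline-deficient (MCD) diet. They are *Spp1*, *Sox9*, *Krt19*, *Krt7*, *Epcam*, *Cd24a*, *Afp*, *Gpc3*, *Mmp7* and *Ly6d*, 10 of the 35275 genes of the table, matched by symbol. The set was chosen by what the genes mark and with the FPKM of these livers in view, *Ly6d* in particular being selected on its values by diet and genotype. RNA of whole livers was sequenced from 12 mice, 3 in each of 4 groups: wild-type (WT) on chow, *Pctp*-/- on chow, WT on MCD and *Pctp*-/- on MCD. *Pctp*-/- mice lack PC-TP, a phosphatidylcholine transfer protein, in every tissue, and not in hepatocytes alone. The study states that its animals were male. The age of these mice and the time on the MCD diet were not given in the sources used here. No mouse gave more than 1 library. Values are FPKM, the fragments of a gene per kilobase of its length and scaled to the size of the library, so levels can be set side by side between genes.

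Hepatocytes and the cholangiocytes that line the bile ducts arise from a common fetal precursor, the hepatoblast, which expresses *Afp*, *Gpc3*, *Epcam* and, on the way to a duct cell, *Sox9*, *Krt19*, *Krt7* and *Spp1*. In chronic injury, duct-like cells can multiply around the portal tracts (the ductular reaction), and hepatocytes can take up some duct or fetal genes without becoming duct cells. The MCD diet impairs the export of triglyceride from hepatocytes and produces steatosis, cell death and inflammation. In whole liver RNA, fewer cells of a type and less RNA per cell cannot be told apart.

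Markers of hepatocytes dominated every library, but their summed level differed between groups. The summed FPKM of 7 of them (albumin, transthyretin and others) was 44870 to 52412 over the chow livers. On MCD it was 61805 to 68569 in WT and 75970 to 82977 in *Pctp*-/- livers. Uniquely mapped reads numbered 30486576 to 55179468 per library. The chow and MCD libraries differed in read quality: the error rate was 0.03% in every chow library and 0.01% in every MCD library, and 77.6 to 79.4% against 85.7 to 87.5% of reads mapped uniquely. The labels name no batch, and effects of diet and of sequencing cannot be told apart, whereas genotypes were compared at like read quality. The targeted gene *Pctp* was at 1.21 to 2.65 FPKM in WT and 0.330 to 0.566 in *Pctp*-/- livers on chow, and at 3.61 to 7.90 and 0.156 to 0.329 on MCD, with no overlap on either diet. The log2(FPKM + 1) values, a scale that understates the change of low genes, were fitted with limma. The fit held the 12466 genes whose mean reached 0.5 FPKM, with p adjusted over all of them by Benjamini-Hochberg, with a threshold of 0.05. This took in 8 of the 10 markers, leaving out *Krt7* and *Mmp7*. *Ly6d*, as it was picked for its values, is described with no test. Of the 7 hepatocyte markers, 1 rose (albumin) and 3 fell on MCD in WT, and 1 rose and 2 fell in *Pctp*-/- livers (limma). Of all tested genes, 34.5% rose and 22.5% fell in WT, and 26.0% rose and 24.4% fell in *Pctp*-/- livers. The higher sums on MCD are therefore not a rise of each marker. Between genotypes *Pctp* itself passed on MCD (-2.33 ± 0.23, adjusted p = 0.00062 from limma) but not on chow (-1.07 ± 0.23, adjusted p = 0.15). A gene that did not pass between genotypes on chow is therefore not shown to be unchanged.

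Of the 6 markers with a promoter sequence, the 3 whose MCD livers were all above the chow livers of their genotype are shown, to let their start regions be compared. The sequences are from RefSeq on GRCm38.p6, each the 250 bases before a start site, read on the plus strand on which all 3 genes lie. Capitals mark the motifs found on either strand among the TATA box (TATAAA), the TEAD motif GGAATG, the AP-1 motif TGANTCA and the SOX motif AACAAT.
Afp, chr5:90490464-90490713: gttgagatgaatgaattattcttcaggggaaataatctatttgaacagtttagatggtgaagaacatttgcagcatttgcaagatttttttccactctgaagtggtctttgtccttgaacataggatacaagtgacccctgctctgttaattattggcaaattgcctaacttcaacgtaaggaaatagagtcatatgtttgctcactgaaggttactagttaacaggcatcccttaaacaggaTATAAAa
Spp1, chr5:104434861-104435110: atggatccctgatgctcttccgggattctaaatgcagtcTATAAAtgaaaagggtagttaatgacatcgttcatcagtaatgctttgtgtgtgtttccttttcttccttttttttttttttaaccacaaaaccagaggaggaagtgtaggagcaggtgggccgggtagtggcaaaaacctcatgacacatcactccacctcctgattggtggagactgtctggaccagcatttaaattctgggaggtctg
Mmp7, chr9:7691840-7692089: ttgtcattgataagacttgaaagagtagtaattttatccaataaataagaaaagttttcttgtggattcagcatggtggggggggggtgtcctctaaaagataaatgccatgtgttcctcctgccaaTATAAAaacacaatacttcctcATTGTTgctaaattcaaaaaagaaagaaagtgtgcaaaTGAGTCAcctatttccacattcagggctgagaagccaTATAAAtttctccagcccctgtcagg

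The *Mmp7* window held an AP-1 motif 63 to 57 bases before the start site, a TATA box at 26 to 21 and another at 123 to 118, and a SOX motif on the opposite strand at 101 to 96. The *Afp* window held a TATA box 7 to 2 bases before the RefSeq start at its end. The GENCODE gene begins further downstream, at position 90490737 of chromosome 5. In the *Spp1* window the only match was a TATA box at 211 to 206. Among 32851 promoter windows of this length, 12.4% held the TATA box, 12.6% the TEAD motif, 6.75% the AP-1 motif and 9.42% the SOX motif. The windows of *Krt7*, *Epcam* and *Gpc3* held 0 of the 4 motifs. A match is a run of letters and not evidence that a factor binds there.

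Of the duct cell keratins, *Krt19*, an intermediate filament of cholangiocytes (chromosome 11, 100140810 to 100148665), was at a low level in all groups. It was at 0.640, 0.616 and 0.981 FPKM in WT and 0.473, 1.26 and 0.921 in *Pctp*-/- livers on chow. The MCD livers were at 0.799, 0.321 and 0.767 in WT and 0.574, 0.437 and 0.855 in *Pctp*-/-. All 4 groups overlapped. The log2 fold change of MCD against chow was -0.11 ± 0.18 (SE, adjusted p = 0.63 from limma) in WT, with a 95% interval of -0.50 to 0.29, and -0.20 ± 0.18 (adjusted p = 0.37) in *Pctp*-/-. Between genotypes on MCD the 95% interval was -0.39 to 0.39. *Krt7*, the keratin that pairs with it in duct cells (chromosome 15, 101411043 to 101430313), was at 0.103 to 0.335 FPKM in the 12 livers and was too low for the test. On MCD its values were 0.141, 0.148 and 0.103 in WT and 0.234, 0.219 and 0.195 in *Pctp*-/-. These groups did not overlap, while each overlapped the chow livers of its genotype (0.103 to 0.310 in WT, 0.109 to 0.335 in *Pctp*-/-). With the minimum lowered to a mean of 0.1 FPKM, the difference between genotypes on MCD was 0.10 on the log2 scale (adjusted p = 0.65). The annotated gene *Gm671* overlaps *Krt7* on the opposite strand.

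*Epcam*, an adhesion molecule of duct cells and progenitors (chromosome 17, 87635979 to 87651129), was likewise low. Its FPKM was 0.680, 0.403 and 0.821 in WT and 0.292, 0.262 and 0.644 in *Pctp*-/- livers on chow. The MCD values were 0.592, 0.695 and 0.489 in WT and 0.548, 0.337 and 0.691 in *Pctp*-/-. The groups overlapped in each comparison, and the effect of MCD was -0.03 ± 0.15 (SE, 95% interval -0.35 to 0.29) in WT and 0.13 ± 0.15 (-0.19 to 0.45) in *Pctp*-/-, with adjusted p of 0.87 and 0.49 from limma.

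*Sox9*, a transcription factor of duct cells and of hepatocytes next to the ducts (chromosome 11, 112782224 to 112787760), was lower on MCD. On chow it was at 4.30, 3.16 and 2.63 FPKM in WT and 2.42, 6.77 and 6.81 in *Pctp*-/- livers. The MCD livers were at 2.20, 1.78 and 2.34 in WT and 1.85, 1.55 and 1.48 in *Pctp*-/-. In each genotype all MCD livers were below all chow livers. The genotypes overlapped on both diets, and among *Pctp*-/- livers on chow 2 stood well above the other one. The difference between genotypes on chow was 0.46 (95% interval -0.12 to 1.03, adjusted p = 0.81 from limma). The fall in *Pctp*-/- livers passed the test (-1.17 ± 0.27, adjusted p = 0.0030 from limma) and did so in all 21 alternative fits that held the gene. In WT the value was -0.48 ± 0.27 (adjusted p = 0.14), and it passed in 2 of 21, with only the WT libraries fitted (adjusted p = 0.036) and without *Pctp*-/- replicate 1 on chow (0.011), which alters the shared estimate of the spread. The 2 effects were not shown to differ (difference -0.69, 95% interval -1.51 to 0.12, adjusted p = 0.40). *Krt19* and *Sox9* share chromosome 11 with the deleted gene, at 10.1 and 22.8 Mb from it.

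*Spp1* encodes osteopontin, a secreted matrix protein made by duct cells, injured hepatocytes and some macrophages (chromosome 5, 104435118 to 104441050). It was the highest of the duct markers on chow, at 7.90, 7.09 and 9.32 FPKM in WT and 7.29, 7.995 and 10.8 in *Pctp*-/- livers. On MCD it reached 21.7, 10.7 and 12.2 in WT and 13.3, 11.3 and 10.98 in *Pctp*-/-. Every MCD liver exceeded every chow liver of its genotype, although in *Pctp*-/- the nearest values differed by a ratio of only 1.01. The rise passed the test in WT (0.75 ± 0.22, adjusted p = 0.011 from limma), and the value in *Pctp*-/- was 0.42 ± 0.22 (adjusted p = 0.13). The difference between these effects was -0.33 ± 0.31 (adjusted p = 0.65). WT replicate 1 set the size of the rise in WT: without it the value was 0.46 (adjusted p = 0.035), close to the 0.42 of *Pctp*-/- livers, which in that fit passed as well (adjusted p = 0.032). *Gm42793* overlaps *Spp1* on the same strand, so fragments of the 2 genes could have been shared.

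Macrophages are a known source of osteopontin, and their markers moved with the diet. Of 9 tested macrophage markers, 9 rose in WT and 6 in *Pctp*-/- livers, where 34.5% and 26.0% of all tested genes rose, and the summed FPKM of the 10 listed was 57.8 to 157 over the chow livers, 282 to 601 in WT and 315 to 405 in *Pctp*-/- livers on MCD. *Gpnmb*, a marker of lipid-laden macrophages chosen after its values were seen, went from at most 0.0848 FPKM on chow to 14.2 to 69.9 on MCD. The part of these cells in the *Spp1* values was not tested. Among receptors of osteopontin and the other SIBLING genes, 4 of 6 tested rose in WT and 3 in *Pctp*-/- livers (34.5% and 26.0% of all tested genes). *Cd44*, a hyaluronan and osteopontin receptor, rose by 1.17 ± 0.23 (adjusted p = 0.0010 from limma) and 1.02 ± 0.23 (adjusted p = 0.0029). The integrin subunits *Itga4* (0.58 and 0.74) and *Itgb1* (0.45 and 0.36) also rose in both genotypes.

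*Cd24a* encodes a small glycosylated surface protein of progenitors, duct cells and leukocytes (chromosome 10, 43578284 to 43584265). On chow it was at 0.487, 0.412 and 0.533 FPKM in WT and 0.822, 0.547 and 0.763 in *Pctp*-/- livers. The MCD livers were at 1.59, 1.09 and 1.19 in WT and 0.557, 0.835 and 1.22 in *Pctp*-/-. All WT livers on MCD exceeded all WT livers on chow, by a ratio of at least 2.04, whereas the *Pctp*-/- livers on the 2 diets overlapped. The rise in WT was 0.63 ± 0.14 (adjusted p = 0.0026 from limma), and the value in *Pctp*-/- was 0.12 ± 0.14 (adjusted p = 0.52). The difference of the effects was -0.51 (95% interval -0.95 to -0.07), which had an unadjusted p under 0.05 but did not pass over all genes (adjusted p = 0.26). On chow the *Pctp*-/- livers were all above the WT livers (0.21 ± 0.14, adjusted p = 0.87). Intronless copies of *Cd24a* exist in the mouse genome, so the counting could have split its reads and its level is uncertain. Neutrophil markers moved alongside: the summed FPKM of 5 was 0.366 to 3.84 over the chow livers, 18.8 to 24.2 in WT and 6.19 to 14.8 in *Pctp*-/- livers on MCD. Their part in the *Cd24a* values was not tested.

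**Figure D1:**
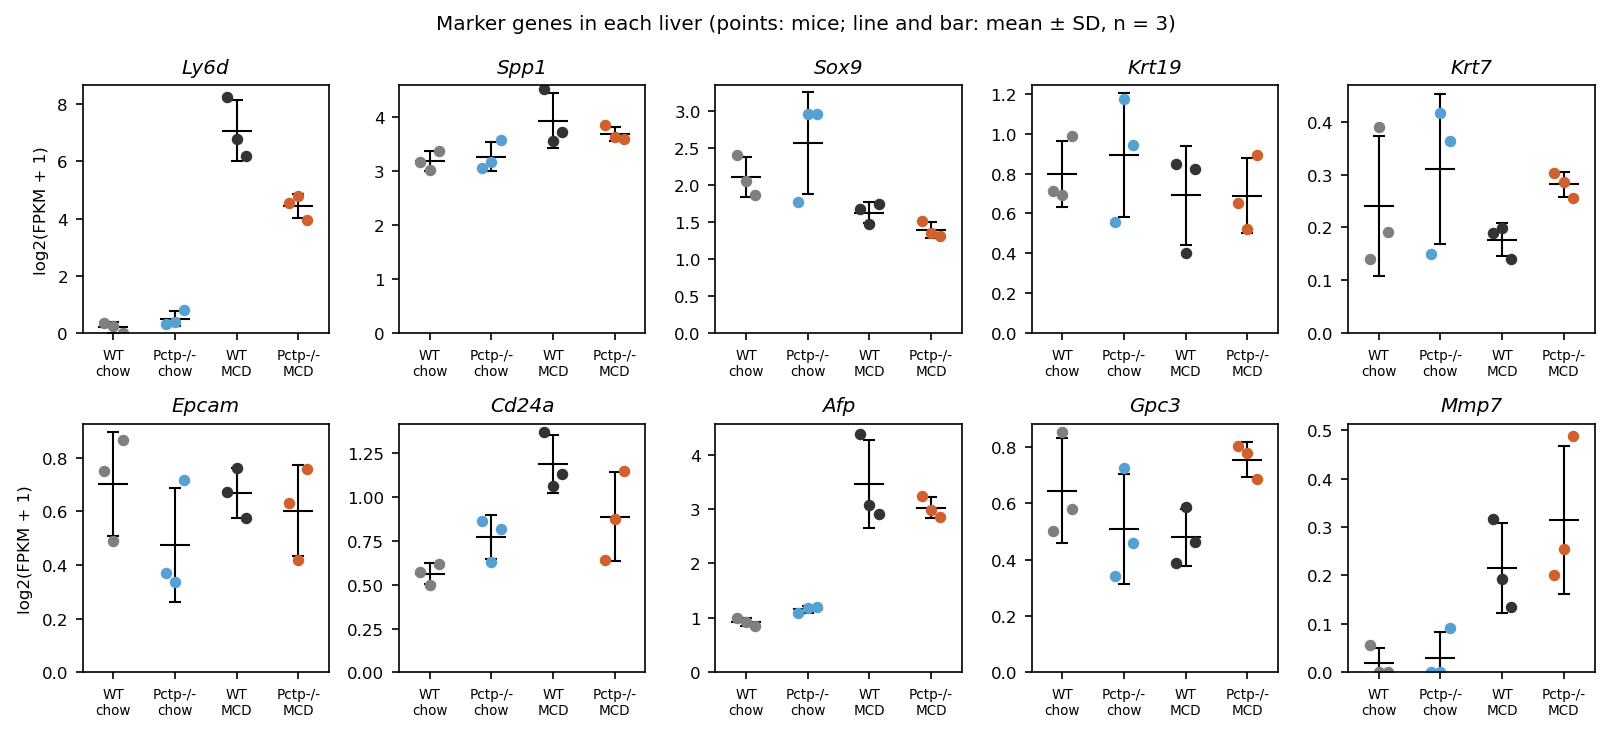
The 10 markers in each of the 12 livers, as log2(FPKM + 1) on the vertical axis, with a scale of its own per panel. Points are mice, and the line and bar are the mean ± SD of 3 mice. *Ly6d* and *Afp* on MCD stand apart from chow in both genotypes, *Sox9* is lower on MCD, and *Krt19* and *Epcam* overlap throughout.

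*Afp*, the fetal counterpart of albumin that is silenced in hepatocytes after birth, was the clearest riser of the tested markers. The gene lies on chromosome 5 from 90490737 to 90508907. On chow it was at 1.01, 0.895 and 0.803 FPKM in WT and 1.12, 1.28 and 1.29 in *Pctp*-/- livers. On MCD it was at 19.9, 7.45 and 6.52 in WT and 8.47, 6.86 and 6.26 in *Pctp*-/-. The mean was 12.5 times the chow mean in WT (7.75 times without replicate 1 on MCD) and 5.85 times in *Pctp*-/-, and the lowest MCD liver was at 6.47 and 4.84 times the highest chow liver. The log2 fold change was 2.53 ± 0.29 (adjusted p = 1.8e-05 from limma) in WT and 1.87 ± 0.29 (adjusted p = 0.00023) in *Pctp*-/-, and both passed in all 22 alternative fits. On MCD the genotypes overlapped (-0.43 ± 0.29, 95% interval -1.06 to 0.20, adjusted p = 0.49). The lower mean of *Pctp*-/- livers rested on WT replicate 1, and without it the difference was 0.03 (adjusted p = 0.96). On chow the *Pctp*-/- livers were all above the WT livers, at 1.36 times the mean (0.23 ± 0.29, adjusted p = 0.97). *Gm43449* overlaps *Afp* on the opposite strand.

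Of the 3 listed repressors that silence *Afp* after birth, 2 fell on MCD in both genotypes and the third in *Pctp*-/- livers. *Zhx2*, a zinc finger and homeobox repressor, was at 4.69 to 6.57 FPKM over the chow livers, 2.21 to 3.14 in WT and 1.86 to 2.298 in *Pctp*-/- livers on MCD. The log2 value fell by 0.90 ± 0.14 in WT (adjusted p = 0.00022 from limma) and by 1.13 ± 0.14 in *Pctp*-/- (adjusted p = 5.0e-05). *Zfhx3*, which encodes the AT motif binding factor, fell by 0.80 and 0.84 (adjusted p of 0.0016 and 0.0014). *Zbtb20*, a zinc finger repressor of *Afp*, fell by 0.51 in *Pctp*-/- livers (adjusted p = 0.020), and its value in WT was -0.32 (adjusted p = 0.11). The same list holds factors that activate *Afp* and other hepatocyte genes, and all of these but *Nr5a2* had lower estimates too. *Nr5a2* was at 0.22 in WT and 0.24 in *Pctp*-/- livers (adjusted p of 0.19 and 0.18 from limma). In all, 8 of 10 tested *Afp* regulators fell in each genotype and 0 rose, where 22.5% of all tested genes fell in WT and 24.4% in *Pctp*-/-. The list had a median of -1.15 in WT and -0.96 in *Pctp*-/-, where the median of all tested genes was 0.11 and 0.04. *Cebpa*, an activator of hepatocyte genes, fell by 2.04 and 1.48, and *Foxa3* by 1.32 and 1.39. Between genotypes, 0 of the 10 passed on either diet (limma, adjusted p under 0.05). Of all tested genes, 0.136% passed on chow and 0.818% on MCD.

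**Figure D2:**
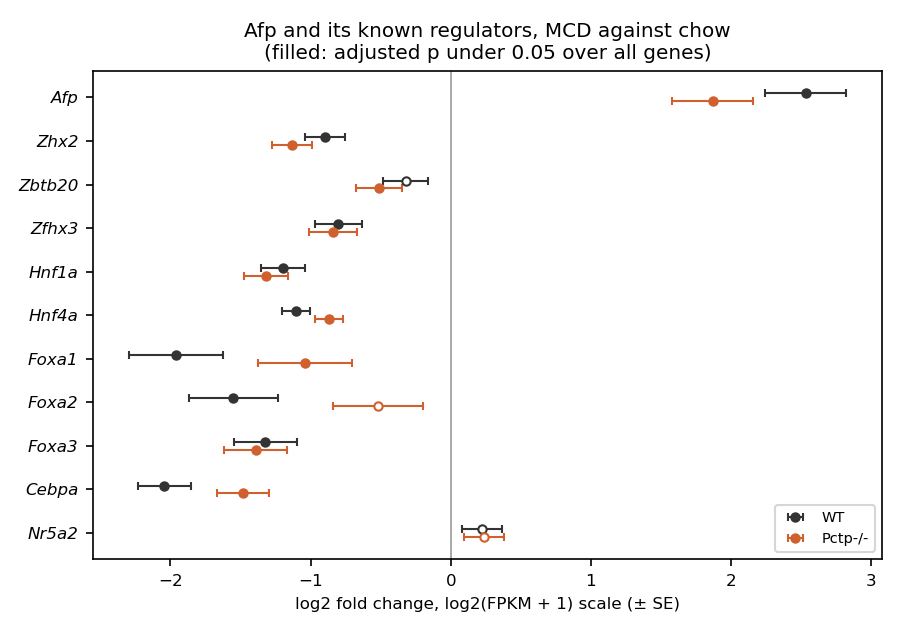
*Afp* and its 10 known regulators, as the log2 fold change of MCD against chow on the log2(FPKM + 1) scale with its standard error, in WT (dark) and *Pctp*-/- (orange) livers. Filled points have an adjusted p under 0.05 over all genes; *Afp* lies to the right of 0 and 8 regulators in each genotype are filled to the left of it.

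*Gpc3*, a heparan sulfate proteoglycan of fetal liver and liver tumours (chromosome X, 52272426 to 52613950), did not follow *Afp*. Its FPKM on chow was 0.417, 0.809 and 0.494 in WT and 0.269, 0.654 and 0.374 in *Pctp*-/- livers. The MCD values were 0.308, 0.503 and 0.379 in WT and 0.744, 0.714 and 0.608 in *Pctp*-/-. The diets overlapped in both genotypes, and on MCD the *Pctp*-/- livers were all above the WT livers. That difference did not pass (0.28 ± 0.13, 95% interval -0.02 to 0.57, adjusted p = 0.33 from limma). *Mir717* and *Mir6384* lie within *Gpc3* on its strand, and *Gm14582* and *A630012P03Rik* overlap it on the other.

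Other genes of fetal liver were divided. Of 7 tested, 5 rose and 1 fell in WT and 3 rose in *Pctp*-/- livers (34.5% and 26.0% of all tested genes rose). Between genotypes, 0 of the 7 passed on either diet (limma, adjusted p under 0.05), where 0.136% of all tested genes passed on chow and 0.818% on MCD. *Lpl*, the lipase that fetal liver makes and adult liver shuts off, rose by 3.52 ± 0.32 in WT (adjusted p = 3.4e-06 from limma) and 2.84 ± 0.32 in *Pctp*-/- (adjusted p = 2.3e-05). *Cdkn1c*, an imprinted cell cycle inhibitor, rose by 1.37 and 1.80, and *Tpm1*, an actin-binding tropomyosin, by 1.26 and 0.88. The imprinted RNA *H19*, which like *Afp* is repressed after birth and is named here after its values were seen, was too low for the test. It was at 0.0368 to 0.113 FPKM over the chow livers, at 1.63, 0.687 and 0.161 in WT and at 0.326, 0.241 and 0.295 in *Pctp*-/- livers on MCD.

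*Mmp7*, a secreted matrix protease of injured duct epithelium (chromosome 9, 7692090 to 7699585), was near the limit of detection. Its values corresponded to whole numbers of fragments within 0.1 of a fragment, so fragments could be estimated. There were 1, 0 and 0 in WT and 0, 0 and 1 in *Pctp*-/- livers on chow. On MCD there were 5, 3 and 2 in WT and 3, 3 and 7 in *Pctp*-/-. The diets did not overlap in either genotype, and the genotypes overlapped on both diets. At a minimum mean of 0.1 FPKM, the effect of MCD was 0.20 on the log2 scale in WT (adjusted p = 0.079 from limma) and 0.28 in *Pctp*-/- (adjusted p = 0.020). *AV064505* overlaps the gene on the opposite strand. Among other matrix proteases and their inhibitors, *Mmp12*, the macrophage elastase, rose by 4.45 in both genotypes, from at most 0.139 FPKM on chow to 12.1 to 52.9 on MCD. *Timp1*, an inhibitor of matrix proteases, rose by 1.49 and 0.99, and *Mmp15*, a membrane-bound protease, fell by 0.96 and 0.97. These were the only genes of the 9 tested in this family that passed in either genotype. Of all tested genes, 57.0% were called for the diet in WT and 50.3% in *Pctp*-/- livers.

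*Ly6d* encodes a small surface protein held by a lipid anchor, known from stratified epithelia and early B lymphocytes (chromosome 15, 74762056 to 74763620, minus strand). On chow it was at 0.283, 0.201 and 0 FPKM in WT and 0.267, 0.307 and 0.744 in *Pctp*-/- livers, estimated as 5, 2 and 0 and as 4, 3 and 8 fragments. On MCD it was at 305, 109.9 and 71.8 in WT livers, or 4322, 1614 and 1016 fragments. In *Pctp*-/- livers on MCD it was at 22.2, 26.6 and 14.7, or 311, 288 and 178 fragments. The 4 groups thus formed 3 levels with no overlap between them: chow, MCD without *Pctp*, and MCD with it. The lowest WT liver on MCD was at 254 times the highest WT liver on chow, and the lowest *Pctp*-/- liver on MCD at 19.7 times the highest on chow; with so few fragments on chow these ratios are rough. On MCD the WT mean was 7.66 times that of *Pctp*-/- livers (4.29 times without WT replicate 1), and the nearest mice differed by 2.69 times. On the log2 scale the knockout difference on MCD was -2.65 ± 0.40 (SE), and it was -2.06 ± 0.25 without WT replicate 1. On MCD it was the highest of the 10 markers in every liver.

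Markers of the other tissues in which *Ly6d* is known were at low levels on both diets. The summed FPKM of 5 B cell markers was 2.60 to 7.11 over the chow livers and 2.94 to 5.38 over the MCD livers. The 4 keratinocyte markers summed to 0.424 to 1.62 in the 12 livers, with 1 of them at 0 in all. *Krt5*, a keratin of basal epithelial cells named after its values were seen, was listed at 0 in all 6 chow livers and at 0.431, 0.0925 and 0.0240 in WT livers on MCD. Its values in *Pctp*-/- livers on MCD are not reported here. *Krt10* was the only 1 of the 4 high enough to test. The log2 fold change of *Krt10* on MCD against chow was -0.16 in WT (adjusted p = 0.43 from limma) and -0.47 in *Pctp*-/- livers (adjusted p = 0.031). The part of B cells or keratinocytes in the *Ly6d* values was not tested. Among the related Ly6 genes, 4 of 6 tested rose in WT and 5 in *Pctp*-/- livers (34.5% and 26.0% of all tested genes). Between genotypes, 0 of the 6 passed on either diet (limma, adjusted p under 0.05), where 0.136% of all tested genes passed on chow and 0.818% on MCD. *Ly6a*, a stem cell and endothelial antigen, rose by 1.77 and 0.97. *Ly6e* rose by 1.48 and 1.07, and *Ly6c2*, a monocyte antigen, by 1.17 and 0.85. Their differences between genotypes on MCD were -0.36, -0.13 and -0.25.

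The genes whose pattern over the 12 livers was most like that of *Ly6d* were *Rap1gap2*, *Nupr1* and *Arpp19* (Pearson correlations of 0.993, 0.992 and 0.991 of log2 values). *Nupr1* encodes a stress-induced nuclear protein. When the group means were taken out, leaving the differences between mice of a group, the closest were *Dnmt3a* (0.955), *Asns* (0.954) and *Mtmr11* (0.950). *Asns* is the asparagine synthetase gene, a target of the amino acid response. For *Afp* the closest over the 12 livers were *Blnk* (0.997), *Reep5* (0.995) and *Pls1* (0.994), and within groups *Blnk* (0.992), *Tinag* (0.982) and *Trem2* (0.981). *Blnk* is an adaptor of immune receptor signalling, and *Trem2* a receptor of lipid-laden macrophages. For *Spp1* they were *Snhg18* (0.960), *Tmem273* (0.957) and *Alpk1* (0.953), and for *Sox9*, *Slc27a3* (0.972), *Armc6* (0.961) and *Hmg20b* (0.959). For *Cd24a* they included *Clta* (0.952) and *Rhog* (0.934). The closest genes of *Krt19*, *Epcam* and *Gpc3* reached 0.817, 0.830 and 0.822. These values describe 12 libraries that share 4 groups, with read quality that differs by diet, and each is the highest of all genes tested. For *Ly6d* and *Afp*, WT replicate 1 on MCD stood well above the other WT livers on MCD. It therefore weighs heavily in their correlations within groups.

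*Krt8* and *Krt18*, the keratin pair that hepatocytes and duct cells share, separated from the duct keratins. *Krt8* was at 101 to 141 FPKM in WT and 133 to 177 in *Pctp*-/- livers on chow. On MCD it was at 433, 343 and 238 in WT and 170, 131 and 142 in *Pctp*-/- livers. The rise in WT was 1.45 ± 0.20 (adjusted p = 7.6e-05 from limma), and the value in *Pctp*-/- was -0.07 ± 0.20 (adjusted p = 0.80). On MCD the *Pctp*-/- livers were lower by a log2 value of -1.15 ± 0.20 for *Krt8* (adjusted p = 0.021) and -0.90 ± 0.17 for *Krt18* (adjusted p = 0.035), and neither pair of groups overlapped. Both calls depended on the libraries and the fit. Without WT replicate 1 the adjusted p was 0.064 and 0.11, and with only the MCD libraries fitted it was 0.097 and 0.11. With no filter it was 0.055 and 0.077. *Krt18* also missed the threshold with quantile normalization (0.053), median-of-ratios scaling (0.067) and the replicate block (0.057). *Krt8* also missed the threshold without WT replicate 2 or *Pctp*-/- replicate 2 or 3 (0.095 to 0.11). *Krt18* missed it without any of these and without replicate 2 of either genotype on chow (0.056 to 0.16). *Cldn4*, a tight junction protein of duct epithelium, was estimated at 0 to 3 fragments per chow liver, 169, 46 and 19 in WT and 8, 3 and 0 in *Pctp*-/- livers on MCD. Its log2 fold change of MCD against chow was 1.43 ± 0.34 in WT, and its difference between genotypes on MCD was -1.31 ± 0.34. *Cldn4* reached the minimum for the test only through the WT livers on MCD, so no p is given.

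**Figure D3:**
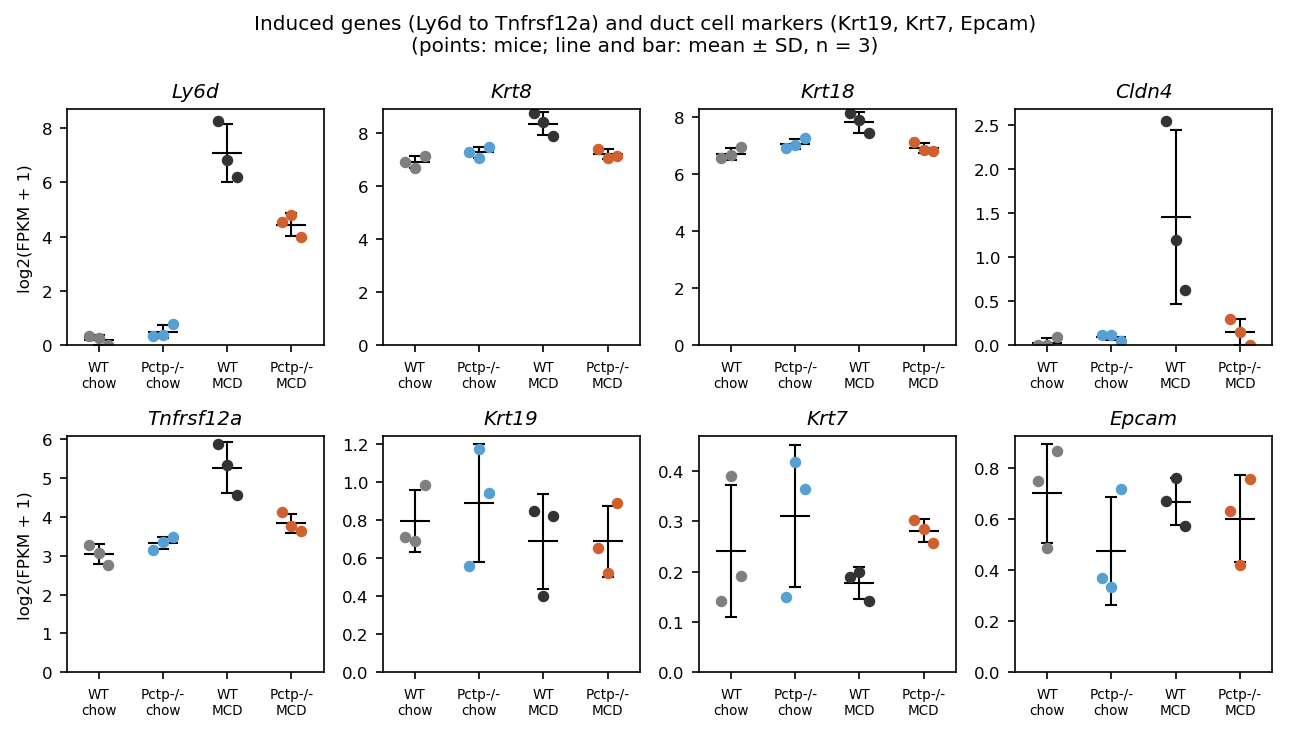
*Ly6d*, *Krt8*, *Krt18*, *Cldn4* and *Tnfrsf12a*, with the duct cell markers *Krt19*, *Krt7* and *Epcam*, as log2(FPKM + 1) in each of the 12 livers. Points are mice, and the line and bar are the mean ± SD of 3 mice. In the first 5 panels the WT livers on MCD are above all other livers, and in the panels of *Krt19* and *Epcam* the groups overlap.

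Of 28 other cholangiocyte genes in the table, 16 were high enough to test. In WT, 7 rose and 3 fell on MCD, where 57.0% of all tested genes were called, and the median was 0.30. The 7 include *Cldn4*, which was high enough to test only through these WT livers on MCD. In *Pctp*-/- livers, 0 rose and 3 fell, where 50.3% of all tested genes were called, and the median was 0.05. The calls in *Pctp*-/- numbered 0 without replicate 2 on chow and 1 without replicate 1 or 2 on MCD. Besides *Krt8* and *Cldn4*, the largest changes in WT were a rise of *Krt23*, a keratin (1.19 ± 0.33, adjusted p = 0.0084 from limma), and a fall of *Onecut1*, a transcription factor of both duct cells and hepatocytes (-2.78 ± 0.68, adjusted p = 0.0041). The falls in *Pctp*-/- livers included *Wfdc2* (-0.65) and the bicarbonate exchanger gene *Slc4a2* (-0.42). The other 12 were too low for the test, and 3 of them were under 0.1 FPKM in every liver. Among the low genes, named after their values were seen, *Cftr*, the chloride channel, was at most at 0.0429 FPKM and *Sctr*, the secretin receptor, at most at 0.0784.

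Genes of the Hippo-YAP and Notch pathways, which act on duct cell fate and can induce *Sox9*, went both ways. Of 14 tested, 4 rose and 5 fell in WT, and 2 rose and 6 fell in *Pctp*-/- livers, where 57.0% and 50.3% of all tested genes were called. *Wwtr1*, the partner of YAP known as TAZ, rose by 1.26 ± 0.16 (adjusted p = 4.4e-05 from limma) and 0.94 ± 0.16 (adjusted p = 0.00048), and *Ccn2*, a YAP target, by 1.12 and 0.75. *Tead3*, a DNA-binding partner of YAP, fell by 1.10 and 0.89, and the receptor gene *Notch1* by 1.05 and 0.87. Between genotypes, 0 of the 14 passed on either diet (limma, adjusted p under 0.05). Of all tested genes, 0.136% passed on chow and 0.818% on MCD.

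Calls among the tested markers, with *Ly6d* left out, came only from the comparisons of the diets, whose libraries also differed in read quality. The difference between diets was not the larger in every marker. For *Epcam* the estimate was -0.23 between genotypes on chow and -0.03 for the diet in WT. Beside *Ly6d*, 3 of the 7 tested markers rose in WT (*Afp*, *Spp1* and *Cd24a*) and 0 fell, where 57.0% of all tested genes were called, 34.5% higher and 22.5% lower. In *Pctp*-/- livers 1 rose (*Afp*) and 1 fell (*Sox9*), where 50.3% of all genes were called, 26.0% higher and 24.4% lower. In neither genotype was the share of markers called larger than that of all genes. By genotype, 0 of the 7 passed on chow or on MCD (limma), and 0 had an unadjusted p under 0.05 on either diet. Of all genes, 0.136% passed on chow and 0.818% on MCD. For the difference of the diet effects 0 of the 7 passed, 1 (*Cd24a*) had an unadjusted p under 0.05, and 0.0963% of all genes passed. Of the same 7, 2 did not overlap between genotypes on chow (*Cd24a* and *Afp*) and 1 on MCD (*Gpc3*), where 10.6% and 26.6% of all tested genes did not overlap. Between diets, 4 of the 7 did not overlap in WT and 3 in *Pctp*-/- livers, where 63.7% and 59.7% of all tested genes did not. WT replicate 1 on MCD had the highest value of its group for 6 of the 10 markers.

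**Figure D4:**
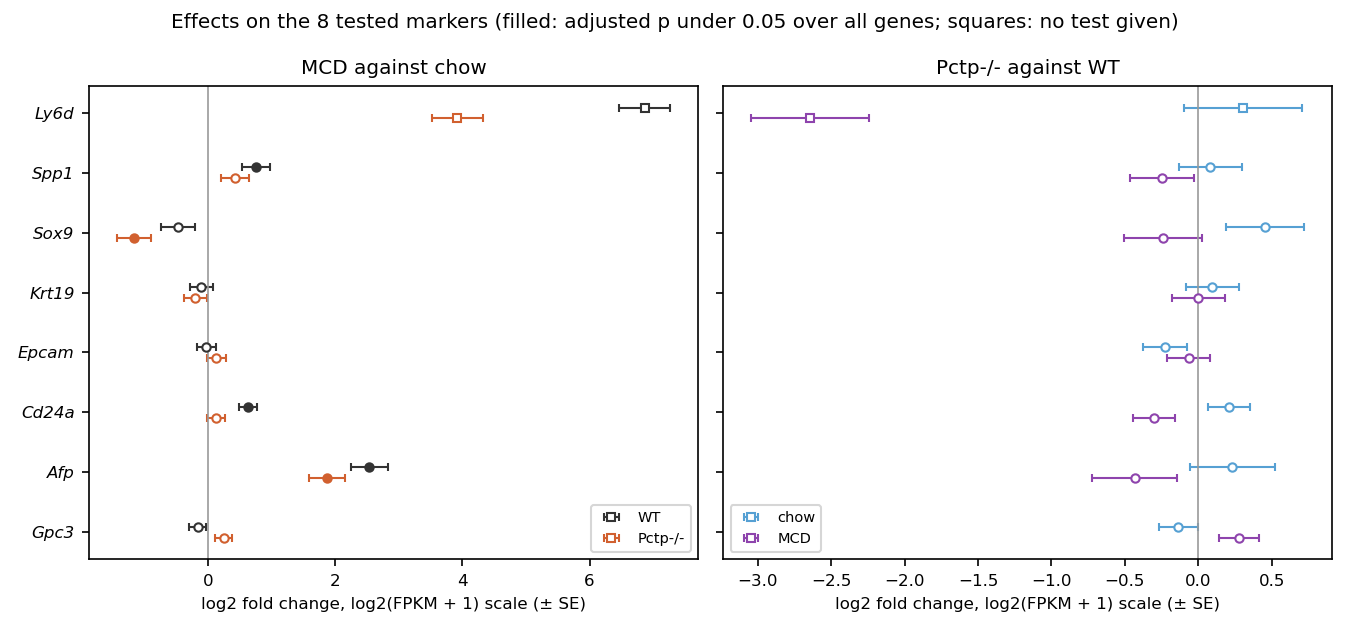
Log2 fold changes on the log2(FPKM + 1) scale with their standard errors for the 8 tested markers, for MCD against chow (left, WT dark and *Pctp*-/- orange) and for *Pctp*-/- against WT (right, chow blue and MCD purple). Filled points have an adjusted p under 0.05 over all genes, and squares (*Ly6d*) carry no test; no circle is filled on the right, and *Afp* is filled in both genotypes on the left.

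Most genes of a list known from injured hepatocytes rose on MCD. Of 20 tested, 18 rose in WT and 11 in *Pctp*-/- livers (34.5% and 26.0% of all tested genes), with a median of 2.06 and 1.16. *Lcn2*, the iron-scavenging acute phase protein lipocalin 2, rose by 5.66 ± 0.44 (adjusted p = 1.0e-06 from limma) and 4.81 ± 0.44 (adjusted p = 4.8e-06). The interferon-induced *Ifi27l2b* rose by 4.58 and 4.21, and the annexin genes *Anxa5* by 3.91 and 3.58 and *Anxa2* by 3.78 and 2.52. Between genotypes on MCD, 18 of the 20 had a lower estimate in *Pctp*-/- livers, with a median of -0.69 against -0.09 for all tested genes. Of the 20, 1 passed, *Tnfrsf12a*, where 0.818% of all tested genes passed. Without WT replicate 1, which had the highest value of its group for 20 of the 22 injury genes listed, 15 of the 20 were lower, with a median of -0.50, and 0 passed in either direction. *Tnfrsf12a* encodes the receptor of TWEAK, a cytokine that drives the multiplication of liver progenitors. It was at 58.0, 39.0 and 22.8 FPKM in WT and 16.3, 12.6 and 11.5 in *Pctp*-/- livers on MCD, after 5.76 to 10.1 over the chow livers. The difference was -1.42 ± 0.26 (adjusted p = 0.030 from limma), and without WT replicate 1 it was -1.11 (adjusted p = 0.072). It also missed the threshold without WT replicate 2 on either diet or without *Pctp*-/- replicate 2 or 3 on MCD (0.051 to 0.14), with no filter (0.073) and with only the MCD libraries fitted (0.11).

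**Figure D5:**
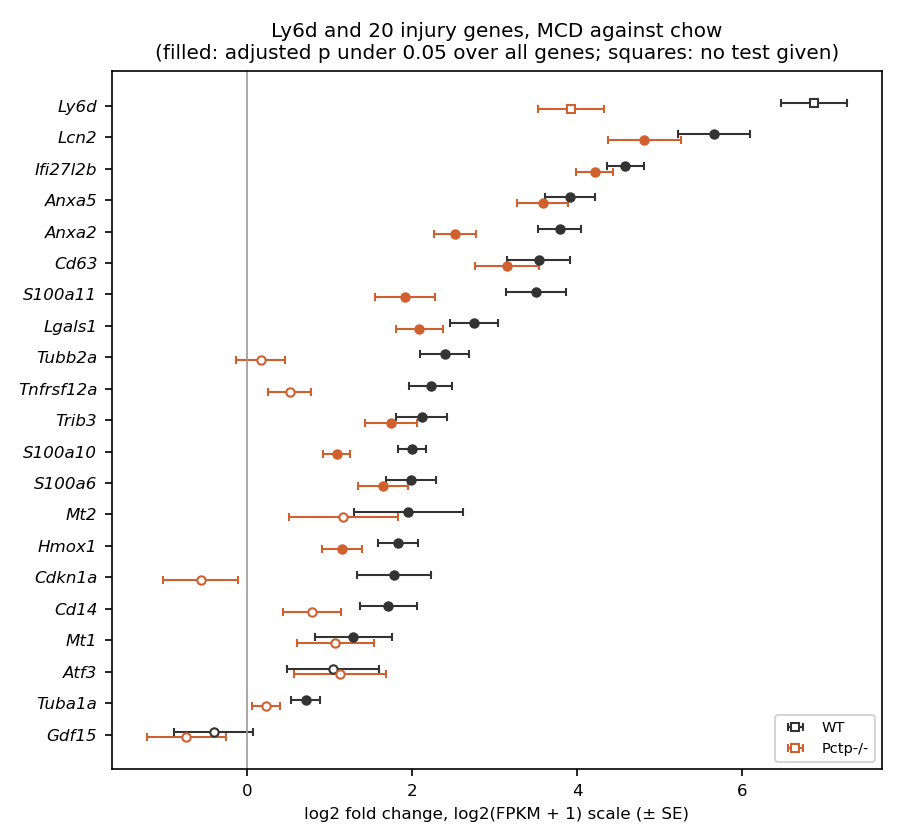
*Ly6d* and 20 genes induced in injured hepatocytes, as the log2 fold change of MCD against chow on the log2(FPKM + 1) scale with its standard error, in WT (dark) and *Pctp*-/- (orange) livers. Filled points have an adjusted p under 0.05 over all genes, 18 in WT and 11 in *Pctp*-/-, and squares (*Ly6d*) carry no test.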

How the data were processed

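For each gene and library the authors deposited an FPKM value, from reads sequenced by Novogene, on the mouse build mm10 per the labels. The aligner, the counting tool and the annotation are not given in the sources used here. A second deposited table gave the reads as whole counts, and percent values of mapping and quality; it was used for depth. FPKM are not counts, so the Wald test of the study was not run. limma 3.58.1 in R 4.3.3 was fitted to log2(FPKM + 1) of all 12 libraries with 4 group means and a mean-variance trend. Genes whose mean reached 0.5 FPKM were tested two-sided, with Benjamini-Hochberg adjustment over 12466 genes. The script was tested on simulated data.

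The markers and lists were chosen with earlier results of these data known, so their counts are descriptions, and counts of called markers leave out *Ly6d*. Every marker is named. From each list, up to 4 called genes per comparison are named by largest absolute fold change, with *Pctp* and the repressors *Zhx2*, *Zbtb20* and *Zfhx3*; others are said to be named after their values were seen. For each tested marker the genes of highest correlation were found. Some genes that these rules pick are not reported here. Fragments were estimated from the smallest step of FPKM, and given where every low value was whole within 0.1 of a fragment. Over all genes 58.5% of 63845 low values were whole, so no counts were recovered. Positions and symbols came from GENCODE on GRCm38, the same assembly, and held 34490 of the identifiers; 1 listed symbol was not matched. Whether the authors' counting used strand is not given. With 3 mice a group, the smallest two-sided p of an exact permutation test is 0.1. The replicate numbers of the labels count different mice. Alternatives were the pseudocount, the filter, the scaling, the libraries fitted, limma's options, a replicate block and leaving out each library. Figures were drawn with matplotlib 3.10.9.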

Additional observations from a re-analysis of the deposited data

Results flagged for a closer look

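Of the markers and listed genes, 4 had all *Pctp*-/- livers above all WT livers on chow and all below them on MCD. The share of all tested genes that did so was not counted, so the 4 are examples and not a result about the lists. Of all tested genes, 10.6% on chow and 26.6% on MCD did not overlap between genotypes, in either direction. The difference of the effects, *Pctp*-/- minus WT on the log2 scale, was -1.60 for *S100a11* (adjusted p = 0.18 from limma), a calcium-binding protein of the injury list, and -2.23 for *Tubb2a* (adjusted p = 0.069), a tubulin of the same list. It was -0.31 for *Ly6c2* (adjusted p = 0.34) and -0.60 for the integrin subunit *Itgb5* (adjusted p = 0.15), so none passed. *Tubb2a*, for example, was at 23.3 to 46.9 FPKM in WT and 62.1 to 89.8 in *Pctp*-/- livers on chow, and at 125 to 250 and 60.9 to 106 on MCD. The targeted gene *Pctp* rose on MCD in every WT liver, from 1.21 to 2.65 FPKM to 3.61 to 7.90, and was lower in every *Pctp*-/- liver on MCD than in any on chow (0.156 to 0.329 against 0.330 to 0.566). The difference of its diet effects was -1.26 (adjusted p = 0.13 from limma), which did not pass either.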

How the results depend on the processing

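The calls of *Afp* in both genotypes, of *Spp1* and *Cd24a* in WT and of *Sox9* in *Pctp*-/- livers passed in every alternative fit that held the gene. Of the markers beside *Ly6d*, those called between genotypes numbered 0 on each diet and for the difference of the diet effects in every alternative (limma). For the diet in *Pctp*-/- livers, 1 was called at a minimum of 5 FPKM. Leaving out each replicate in turn gave 3 to 4 for the diet in WT (*Sox9* passed without *Pctp*-/- replicate 1 on chow) and 2 to 3 in *Pctp*-/- (*Spp1* passed without WT replicate 1 on MCD). *Krt19* between genotypes on MCD changed sign, to 0.024 with a pseudocount of 0.1, 0.039 with quantile normalization and 0.038 with median-of-ratios scaling. When single replicates were omitted, values that changed sign ranged, between genotypes on chow, from -0.069 to 0.19 for *Spp1* and -0.047 to 0.26 for *Krt19*. Between genotypes on MCD they ranged from -0.44 to 0.042 for *Spp1*, -0.14 to 0.083 for *Krt19*, -0.14 to 0.025 for *Epcam* and -0.71 to 0.030 for *Afp*. For the diet they ranged from -0.19 to 0.037 for *Krt19* and -0.14 to 0.050 for *Epcam* in WT, and -0.013 to 0.24 for *Cd24a* in *Pctp*-/-. For the difference of the diet effects *Krt19* ranged from -0.26 to 0.047. The cause was not tested. Of the lists, calls between genotypes on MCD ranged from 0 to 3 of the other cholangiocyte genes and 0 to 2 of the injury genes with a replicate left out. *Krt8* passed there in 16, *Tnfrsf12a* in 15 and *Krt18* in 11 of 22 alternatives. The median of all tested genes between genotypes on MCD was -0.09, and -0.004 with quantile normalization and -0.0068 with median-of-ratios scaling; for the diet in WT it was 0.11, 0.011 and 0.0062.

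The labels do not say that a replicate number joins mice of different groups. The deviations of same-numbered mice from their group means had correlations above 0 in 15 and over 0.1 in 8 of 18 pairs of samples, and 21 of 36 comparisons of a sample were best with its own number, where 12 would be if the numbers had no meaning. The fit without the block was kept because not every correlation was over 0.1. This is a strict rule and does not show that the numbers have no meaning. With the replicate block, 0 of the markers beside *Ly6d* were called between genotypes or for the difference of the diet effects, as without it, and over all genes 32 were called between genotypes on chow (17 without the block) and 59 for the difference (12 without it).

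*Krt19*, *Epcam*, *Gpc3*, *Krt7* and *Mmp7* lay near or under 1 FPKM, where a few fragments set a value, so changes of the size seen in *Sox9* may not have been detectable. The fit with only the libraries compared was not made for the difference of the diet effects.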
